A study of Mus musculus with 16 samples.

Results

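The expression of 9 B-lineage genes was followed through 15 RNA-seq libraries of sorted DN3 thymocytes, the CD4-CD8-CD25+CD44- stage of T-cell development in the thymus. The genes were Cd79a, Cd79b, Ms4a1, Pax5, Ebf1, Cd22, Blk, Blnk and Pou2af1, 9 of the 22114 protein-coding genes in each of both count tables, and they were chosen by name as genes known from B cells. For each library the question was which of them were read only where other B-cell transcripts were read too, and which were read in every DN3 library. The first table holds 3 libraries of GFP hi and 3 of GFP lo DN3 cells from H2B-GFP;Lmo2Tg mice of 2 months, all of which carried a doxycycline-regulated histone H2B-GFP knock-in and an Lmo2 transgene driven by the CD2 promoter. These mice had received doxycycline for 6 weeks and were then left without it for 2 weeks, so GFP hi cells had kept the label by dividing little and GFP lo cells had diluted it, and cells that never took up label had been gated out. The second table holds total DN3 cells of mice of 6 weeks, without GFP sorting: 3 wild-type (WT) libraries, 2 p21KO libraries, which lack Cdkn1a in the germline, 2 Lmo2Tg libraries and 2 Lmo2Tg;p21KO libraries. All lines were on C57BL/6J, the GFP libraries came from 3 cohorts, RNA came from pools of mice, and a library is the unit of replication.

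B cells read antigen through the B-cell receptor, an immunoglobulin joined to a signalling pair, CD79A and CD79B. The Src-family kinase BLK acts next to this pair and the adaptor BLNK carries the signal onward, while CD22 dampens it and CD20, the product of Ms4a1, sits in the same membrane. EBF1 and PAX5 are the transcription factors that establish and hold B-cell identity, and the coactivator encoded by Pou2af1 works with octamer-binding factors at immunoglobulin and other promoters. T-cell progenitors start from precursors that can also make B cells, and parts of this gene set are known from early thymocytes.

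Promoters are shown for 3 of the genes that stood high in the same libraries, since EBF1 and octamer-binding factors are members or partners of members. An E-protein motif was searched too, and no PAX5 motif was. Windows of 300 bases, from 250 before to 50 after an annotated start, were matched in RefSeq on GRCm38.p6 for 6 of the 9 genes, with 2 entries for Ebf1 and none for Cd79b, Ms4a1 and Blk. Capitals mark the motifs searched on both strands: TCCC and GGGA with any 2 bases between them (EBF), ATGCAAAT (octamer) and CAGGTG (E protein), which do not overlap in these windows. The windows are chr7:24897247-24897546 on the plus strand for Cd79a, chr7:30878979-30879278 on the minus strand for Cd22 and chr4:44710645-44710944 on the minus strand for Pax5.
Cd79a: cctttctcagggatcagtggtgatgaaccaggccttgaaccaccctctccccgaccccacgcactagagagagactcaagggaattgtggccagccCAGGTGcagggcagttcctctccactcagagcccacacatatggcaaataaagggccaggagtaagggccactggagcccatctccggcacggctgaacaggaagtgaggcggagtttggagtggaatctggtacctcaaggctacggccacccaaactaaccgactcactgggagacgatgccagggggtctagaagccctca
Cd22: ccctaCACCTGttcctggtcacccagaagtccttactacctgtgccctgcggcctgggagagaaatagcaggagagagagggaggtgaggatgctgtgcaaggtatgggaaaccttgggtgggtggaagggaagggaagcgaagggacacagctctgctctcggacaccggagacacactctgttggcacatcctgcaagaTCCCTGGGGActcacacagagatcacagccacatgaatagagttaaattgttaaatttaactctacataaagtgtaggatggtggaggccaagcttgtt
Pax5: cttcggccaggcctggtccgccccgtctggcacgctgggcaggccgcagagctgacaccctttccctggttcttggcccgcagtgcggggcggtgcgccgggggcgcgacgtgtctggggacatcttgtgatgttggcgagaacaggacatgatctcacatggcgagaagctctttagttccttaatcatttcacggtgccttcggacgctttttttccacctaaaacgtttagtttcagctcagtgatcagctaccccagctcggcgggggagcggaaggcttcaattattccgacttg
The EBF motif was found in the window of Cd22, 49 bases before the start, and is held by 0.904% of 32851 promoter windows of this length. The octamer was found in the window of Blnk, 130 bases before the start, and is held by 1.74% of the windows. The E-protein motif was found for Cd79a, Cd22 and Blnk and is common, in 20.2% of the windows. The windows of Pax5, Ebf1 and Pou2af1 held none of these letters, which says nothing on whether the factors bind there.

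Total counts were 26861394 to 31106213 per library in the GFP table and 13864936 to 16837667 in the genotype table, so 3 counts, the most that a true rate giving 0 counts would usually yield, came to 0.0966 to 0.112 and 0.176 to 0.222 CPM (reads of a gene relative to the library's TMM-adjusted total). Intervals and these limits cover counting error only. Lmo2 stood at 41.4 to 107 CPM in the 4 libraries labelled with the transgene and at 0.0636 to 0.306 CPM in the 5 without it. Cdkn1a stood at 36.5, 37.5 and 49.0 CPM in WT and at 14.3 and 17.7 CPM in p21KO (log2 fold change -1.36 ± 0.17 SE, adjusted p = 0.0082, edgeR quasi-likelihood), lower but not at 0, and at 4.35 and 3.50 CPM in Lmo2Tg;p21KO. The T-lineage gene Cd3e had at least 3982 counts in every library and Dntt, the enzyme that adds bases during receptor rearrangement, at least 20650, though neither sets DN3 apart from other thymocytes. Ptcra, the pre-T-cell receptor alpha chain, stood at 132 to 186 CPM in the libraries without the transgene and at 22.4 to 55.7 CPM in those with it in the genotype table, and Cd8a, whose product the sort excludes, at 5.19 to 13.7 and 21.8 to 34.5 CPM. GFP hi replicate 3 stood apart from the other GFP hi libraries, with Lmo2 at 285 CPM against 29.5 and 53.8 CPM and Cdkn1a at 6.56 CPM against 29.9 and 35.8 CPM, so results that rest on it are also given without it.

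Among the 9 genes, 5, namely Cd79a, Ms4a1, Pax5, Ebf1 and Cd22, had 0 to 7 counts in each GFP lo library and 6 to 222 in each GFP hi library. They were set apart by having under 10 counts in each GFP lo library. For none of them did the groups overlap, and 16.3% of the 15299 genes with a count also had every GFP hi library above every GFP lo library. Cd79b, Blk, Blnk and Pou2af1 were read in every GFP lo library, with 49 counts or more. Ms4a1 passed the threshold between the groups and rose in GFP hi. Of the 8 genes that passed the filter on low counts, 1 was called higher and 0 lower at more than 2-fold and an FDR (adjusted p) under 0.01, where 2.25% of 11581 genes were called, 0.302% higher and 1.95% lower. Without GFP hi replicate 3, 5 of the 8 and 1035 of all genes were called, against 261 of all genes with it, so the background rose too. Cd79a, Ms4a1, Pax5 and Cd22 passed that filter only through the GFP hi libraries and so had to differ, and Ebf1 did not pass it.

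Ms4a1, the CD20 gene (chr19:11249675-11266241, minus strand, GRCm38), had 51, 222 and 60 counts in GFP hi replicates 1, 2 and 3 and 0, 0 and 1 counts in GFP lo replicates 1, 2 and 3. These are 1.87, 7.58 and 2.23 CPM against at most 0.0322 CPM, with no overlap, and most of the reads were in GFP hi replicate 2. The ratio of the summed GFP hi to the summed GFP lo counts was 346, with an exact 95% counting interval of 61.7 to 1.37e+04 that is wide because a single GFP lo read sets it. The fitted log2 fold change was 7.94 ± 1.08 (SE, n = 3 libraries a group, edgeR quasi-likelihood adjusted p = 0.0092), a value that depends on the prior count. Ms4a1 had entered the test only through GFP hi, so its direction was fixed beforehand. The call was lost with limma-voom (adjusted p = 0.015), with the replicate number as a block (edgeR adjusted p = 0.039, 0 of all genes called) and when GFP hi replicate 1 or any GFP lo replicate was left out, with adjusted p between 0.019 and 0.073.

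Cd22, the inhibitory co-receptor gene (chr7:30865402-30880342, minus strand), had 42, 211 and 47 counts in the GFP hi libraries and 1, 1 and 3 counts in the GFP lo libraries. The pooled ratio was 62.4 (95% counting interval 26.5 to 194), and its fitted log2 fold change of 5.83 ± 0.94 missed the threshold (edgeR adjusted p = 0.014). Pax5, the B-cell commitment factor (chr4:44524757-44710487, minus strand), had 34, 174 and 41 counts against 0, 2 and 3, a pooled ratio of 51.8 (21.9 to 161) and a log2 fold change of 5.56 ± 1.01 (edgeR adjusted p = 0.021). Both genes thus repeated the order of Ms4a1, with replicate 2 far above replicates 1 and 3 and no overlap between GFP hi and GFP lo. Cd79a, a signalling chain of the receptor (chr7:24897381-24902197, plus strand), had 28, 123 and 61 counts in GFP hi against 6, 7 and 7 in GFP lo, where it was the only one of the 5 genes above 3 counts in every library. Its pooled ratio was 11 (6.96 to 18.4) and its log2 fold change 3.42 ± 0.59 (edgeR adjusted p = 0.018). Ebf1, the factor upstream of Pax5 (chr11:44617317-45008091, plus strand), was the scarcest, with 17, 28 and 6 counts in GFP hi and 1, 1 and 2 in GFP lo, a pooled ratio of 13.3 (4.87 to 50.5) that was not tested. Cd79a, Pax5 and Cd22 passed the threshold with DESeq2 (adjusted p = 2e-05, 3.1e-06 and 2e-07) and at an FDR of 0.05. They also passed without GFP hi replicate 3 (edgeR adjusted p = 0.006, 0.0035 and 0.0023). These genes had entered the test only through GFP hi, so the passes add no support for a difference.

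**Figure D1:**
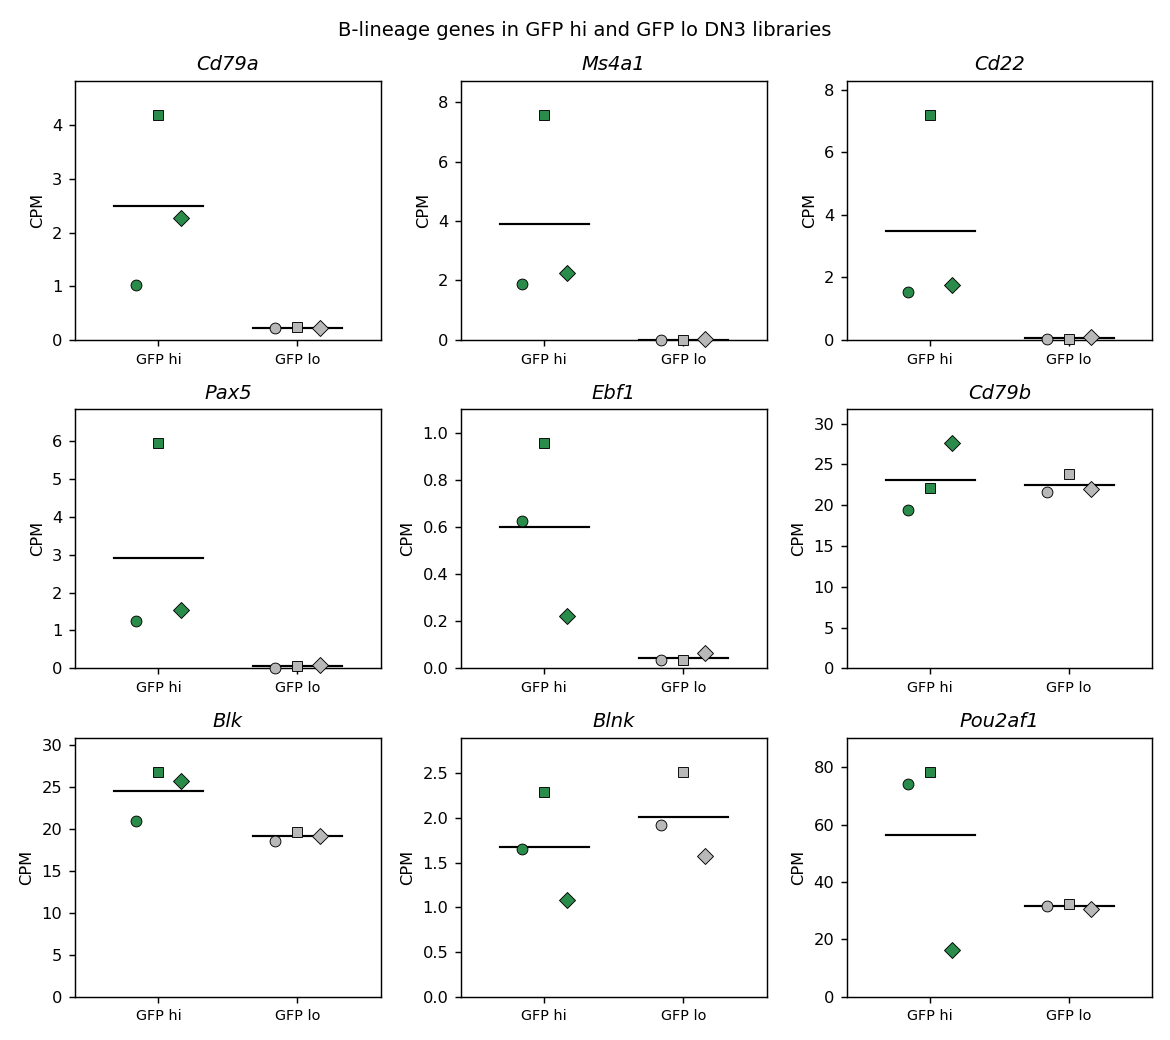
Level of each of the 9 genes in the 3 GFP hi and 3 GFP lo libraries, in TMM-normalized CPM on linear axes from 0 (circle, square and diamond are replicates 1, 2 and 3, the line is the group mean). Ms4a1, Cd22, Pax5 and Cd79a peak in GFP hi replicate 2, while Pou2af1 is lowest in GFP hi replicate 3.

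The 3 GFP hi libraries differed among themselves, and ratios between them do not use GFP lo counts. The scarce genes had still been set apart by their GFP lo counts, so this reading is not independent of GFP lo. Normalized counts in replicate 2 over replicate 1 stood at 4.08 for Cd79a (95% counting interval 2.69 to 6.39), 4.04 for Ms4a1 (2.97 to 5.59), 4.67 for Cd22 (3.34 to 6.66) and 4.75 for Pax5 (3.28 to 7.08). Intervals of some B-cell genes outside the 9 covered these ratios, at 4.4 for Fcer2a (2.49 to 8.26), a low-affinity IgE receptor gene, and 5.35 for the complement receptor gene Cr2 (3.18 to 9.56), while the ratio was 7.02 for Faim3 (4.15 to 12.7) and higher for Fcrla, at 10.3 (4.79 to 26.6). Reference B-cell genes that were abundant in GFP lo did not share this order, such as Ralgps2 at 141.2 and 137.5 CPM in replicates 1 and 2. The genes set beside the 9 here were picked after their values were seen. Ratios were near 1 for the T-cell genes Cd3e, at 0.873 (0.850 to 0.897), and Lck, at 0.968 (0.953 to 0.982). Cd79b at 1.14 (1.01 to 1.28), Blk at 1.28 (1.14 to 1.42) and Pou2af1 at 1.06 (0.996 to 1.12) were nearer to 1 than to the B-cell genes. Blnk at 1.38 (0.934 to 2.06) could not be told from 1 at this depth. These intervals compare single libraries and not the GFP groups.

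Replicate 2 over replicate 3 gave the same split for Ms4a1, at 3.39 (2.54 to 4.59), Cd22, at 4.11 (2.99 to 5.77), and Pax5, at 3.89 (2.75 to 5.61), beside 3.1 for Fcer2a (1.88 to 5.31). Cd79a was lower on this reading, at 1.85 (1.35 to 2.55), because replicate 3 held 2.21 times the normalized Cd79a counts of replicate 1 (1.39 to 3.59), where Ms4a1 stood at 1.19 (0.807 to 1.77), Cd22 at 1.13 (0.732 to 1.76) and Pax5 at 1.22 (0.757 to 1.99). Ebf1 differed the other way, with a replicate 2 over replicate 1 ratio of 1.53 (0.809 to 2.98) and a replicate 3 over replicate 1 ratio of 0.358 (0.115 to 0.951), on few counts. Cd79a and Ebf1 therefore did not keep fixed proportions to Ms4a1, Cd22 and Pax5 across the GFP hi libraries.

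**Figure D2:**
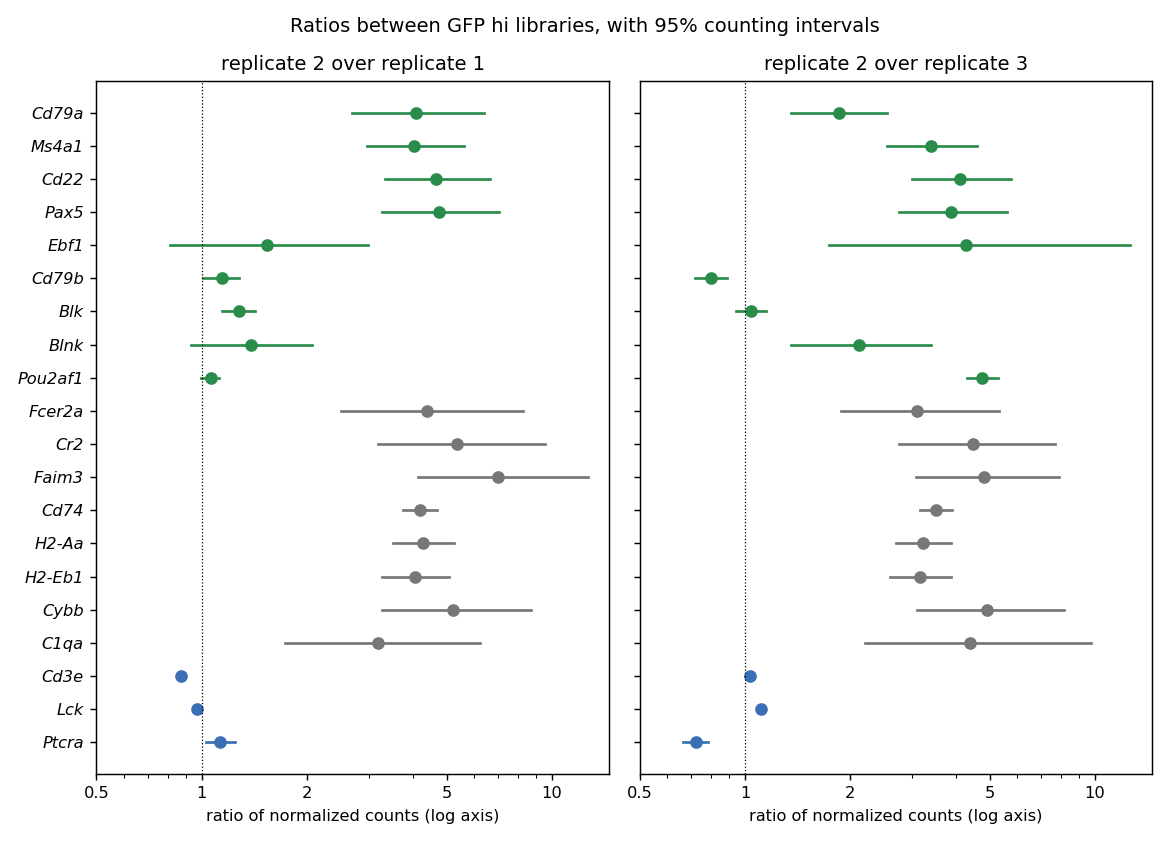
Ratio of normalized counts between GFP hi libraries for the 9 genes (green), other B-cell, MHC class II and macrophage genes (grey) and T-cell genes (blue), on a log axis with 95% counting intervals. In the left panel Cd79a, Ms4a1, Cd22 and Pax5 lie between 4.04 and 4.75 and the grey genes between 3.18 and 7.02. The grey genes drawn are a selection. Of others computed, Irf4 at 2.03, Csf1r at 2.32, C1qc at 2.57, Fcrla at 10.3 and Sirpa at 50.2 lay outside that range. Bank1, Ciita, C1qb and Cd180 lay inside it. Cd79b, Blk and Pou2af1 lie there between 1.06 and 1.28, nearer to the T-cell genes. In the right panel Pou2af1 lies at 4.76, above Ms4a1, Cd22 and Pax5, and Cd79a at 1.85 lies below Blnk at 2.12.

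Cd79b, Blk, Blnk and Pou2af1, each with 29 counts or more in every GFP library, did not pass the threshold between GFP hi and GFP lo. Cd79b, the other signalling chain (chr11:106311341-106314762, minus strand), stood at 19.4, 22.1 and 27.6 CPM in GFP hi and at 21.6, 23.8 and 22.0 CPM in GFP lo, with overlapping groups and a log2 fold change of 0.04 ± 0.15 (95% interval -0.32 to 0.39, edgeR adjusted p = 0.88). Blnk, the adaptor gene (chr19:40928927-40994535, minus strand), stood at 1.65, 2.29 and 1.08 CPM in GFP hi and at 1.92, 2.51 and 1.58 CPM in GFP lo, also overlapping, with a log2 fold change of -0.26 ± 0.34 (edgeR adjusted p = 0.63). Of these genes, Cd79b was highest in GFP hi replicate 3 and Blnk in GFP lo replicate 2, not in the library where Ms4a1 was highest.

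Blk, the Src-family kinase (chr14:63372836-63417037, minus strand), stood at 20.98, 26.79 and 25.74 CPM in GFP hi and at 18.6, 19.7 and 19.1 CPM in GFP lo. The groups did not overlap, but the log2 fold change of 0.36 ± 0.12 missed the threshold (edgeR adjusted p = 0.092). Every GFP hi library lay above every GFP lo library for 6 of the 9 genes, Blk and the 5 scarce ones, and for 16.3% of the 15299 genes with a count. Over the GFP lo mean of 19.1 CPM, Blk was higher by 1.85, 7.66 and 6.61 CPM in GFP hi replicates 1, 2 and 3, where Ms4a1 was higher by 1.86, 7.57 and 2.22 CPM. The excess of Blk was thus nearly as large in replicate 3 as in replicate 2, while that of Ms4a1 in replicate 2 stood far above the others. Over the 6 GFP libraries, which fall into groups, Pearson's r of log2 CPM for Blk was 0.904 with Ms4a1, 0.907 with Cd22 and 0.918 with Pax5. It was 0.430 with Cd79b, 0.125 with Pou2af1 and -0.252 with Blnk. The GFP lo level of Blk was 71.4% to 91.2% of its level in each GFP hi library, while that of Ms4a1 was at most 0.573%.

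Pou2af1, the octamer coactivator (chr9:51213708-51240080, plus strand), split the GFP hi libraries instead. It stood at 74.1 and 78.4 CPM in GFP hi replicates 1 and 2, at 16.5 CPM in replicate 3 and at 31.5, 32.5 and 30.7 CPM in GFP lo. The log2 fold change was 0.84 ± 0.54 over all libraries (edgeR adjusted p = 0.32) and 1.28 without GFP hi replicate 3 (edgeR adjusted p = 6.1e-05), when it passed the threshold. Replicate 2 over replicate 3 was 4.76 (4.30 to 5.29), and replicate 2 over replicate 1 was near 1, an order that Ebf1 and, less steeply, Blnk also had on few counts. Mzb1, which encodes an endoplasmic reticulum protein of B and plasma cells, also had its lowest GFP hi level in replicate 3, at 11.1 CPM against 127 and 143 CPM, and stood at 145 to 168 CPM in GFP lo.

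Cd79a and Cd79b encode partners of 1 receptor complex, yet their transcripts were far from equal. Per kilobase of exon (1457 bases of merged exons for Cd79a and 1431 for Cd79b), Cd79b stood at 15.1 to 16.7 CPM per kb in GFP lo and Cd79a at 0.152 to 0.168 CPM per kb, 1.01% of the Cd79b level in each of the 3 libraries. In GFP hi replicates 1, 2 and 3 the Cd79a level was 5.20%, 18.7% and 8.09% of the Cd79b level. In the genotype table it lay between 0.605% in WT replicate 3 and 4.80% in an Lmo2Tg library. On the same scale in GFP lo, the order of group means was Cd79b at 15.7, Pou2af1 at 12.4, Blk at 7.09 and Blnk at 0.335 CPM per kb, with no overlap between neighbours, and the other 5 genes were at 0.158 CPM per kb or less. For comparison, Ptcra stood at 20.3 CPM per kb and Cd3e at 100.5 CPM per kb.

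**Figure D3:**
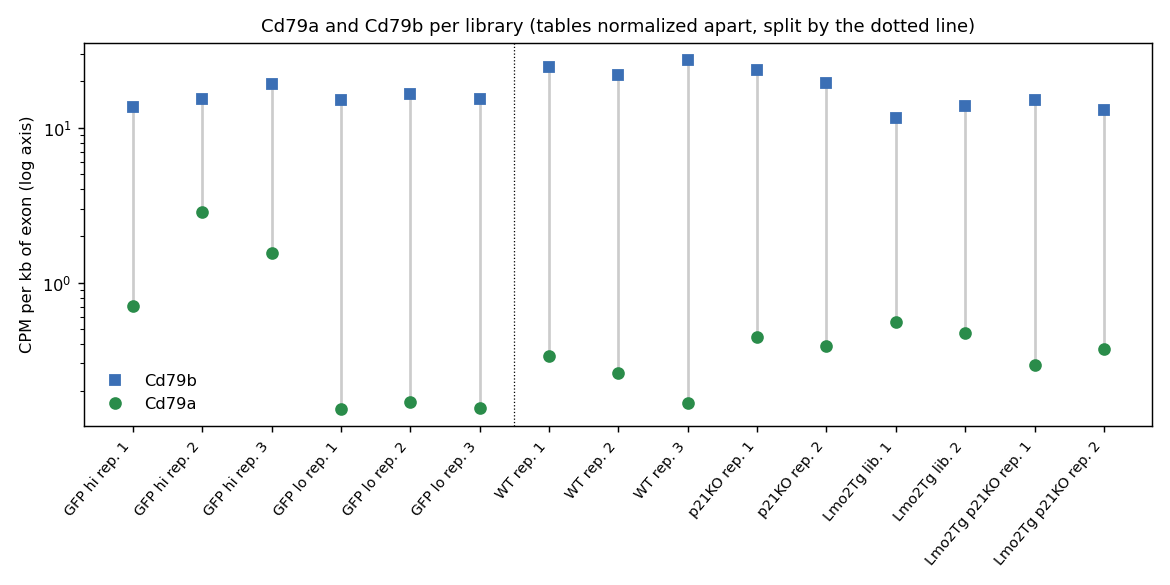
Cd79a (circles) and Cd79b (squares) in each library, in CPM per kb of exon on a log axis, with the GFP table left and the genotype table right of the dotted line, normalized apart. Cd79b stays between 11.6 and 27.4 CPM per kb, while Cd79a runs from 0.152 to 2.88 CPM per kb and is highest in GFP hi replicate 2.

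Some markers of other cells moved with the scarce genes and others did not, and their part in the results was not tested. From 21 reference B-cell genes, 6 that were nearly unread in GFP lo (0 to 2 counts a library) were picked after their values were seen, namely Fcer2a, Cr2, Faim3, Fcrl1, Vpreb3 and Fcrl5. Their summed counts were 58, 345 and 76 in GFP hi and 4, 3 and 1 in GFP lo, beside 172, 758 and 215 and 8, 11 and 16 for the 5 scarce genes. Over the whole reference list the summed level was 327 to 385 CPM in GFP hi and 425 to 438 CPM in GFP lo, carried by genes that were abundant in both groups, such as Ralgps2 at 212 ± 15.3 CPM and Cd37 at 107 ± 10.9 CPM in GFP lo (mean ± SD, n = 3). Of 16 reference genes tested, 0 were called in edgeR at an FDR of 0.01, and the median log2 fold change was 1.25 against 0.02 over all genes tested. Genes nearly unread in GFP lo could enter this test only through GFP hi, which raises the median. Fewer cells of a type and less RNA per cell cannot be told apart in such bulk libraries.

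As a sum, MHC class II genes, which B cells, dendritic cells and macrophages use to present antigen, followed the same order. Among them, H2-Ab1 overlapped between GFP hi and GFP lo. The list of 10 summed to 66.8 to 163 CPM in GFP hi and 47.0 to 48.6 CPM in GFP lo, with a median log2 fold change of 1.22. Of the 10, 2 were called higher, Cd74 and H2-Eb1, where 0.302% of all genes were. Cd74 and H2-Eb1 had 33 and 21 summed counts in GFP lo and could pass the filter on low counts only through GFP hi. Cd74, the invariant chain, stood at 13.7, 57.4 and 16.4 CPM in GFP hi and at 0.296, 0.419 and 0.419 CPM in GFP lo (log2 fold change 6.25 ± 0.75, edgeR adjusted p = 0.0065). Macrophage and myeloid genes summed to 11.1 to 19.5 CPM in GFP hi and 11.9 to 13.1 CPM in GFP lo. Among them, 1 of 15 genes, Elane, was at 0 counts in all 6 libraries. Of 7 tested, 0 were called in edgeR, with a median log2 fold change of 2.34. Here too, genes near 0 in GFP lo could enter the test only through GFP hi. Of the 7, 4 had a log2 fold change above 0 and the rest did not. C1qa, a complement gene of macrophages and 1 example picked from that list, had 14, 48 and 10 counts in GFP hi against 1, 1 and 4 in GFP lo. Conventional dendritic-cell genes summed to 44.1 to 45.7 CPM in GFP hi and 57.3 to 61.7 CPM in GFP lo, and the plasmacytoid marker Siglech had 0 counts in the GFP lo libraries and at most 0.0683 CPM in GFP hi. The antibodies named for T-cell populations are to CD4, CD8, CD25, CD44, CD45.1, CD45.2, Thy1.2 and TCRβ. Which cells these transcripts came from was not tested.

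Downstream of the receptor, the 17 other B-cell receptor signalling genes were all tested, and 0 were called between GFP hi and GFP lo in edgeR at an FDR of 0.01. Their median log2 fold change was 0.06, against 0.02 over all genes tested, where 3871 genes had an unadjusted p under 0.05. Syk, the kinase that binds the CD79 pair and also serves the pre-T-cell receptor, stood at 27.5, 37.1 and 41.3 CPM in GFP hi and at 73.2, 69.4 and 66.4 CPM in GFP lo, without overlap. Its log2 fold change of -0.98 ± 0.15 missed both thresholds (edgeR adjusted p = 0.013). Btk, the kinase after BLNK, stood at 0.735 to 5.29 CPM in GFP hi and 0.902 to 2.26 CPM in GFP lo, with overlap.

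In total DN3 cells of the 4 genotypes the scarce genes stayed near the floor. Ms4a1 had 1 to 7 counts, Pax5 0 to 14, Ebf1 0 to 6 and Cd22 0 to 8 over the 9 libraries, and none of them passed the filter on low counts. Pax5 had 14, 5 and 0 counts in WT replicates 1, 2 and 3, 9 and 6 in p21KO, 1 and 7 in Lmo2Tg and 2 and 4 in Lmo2Tg;p21KO, so libraries of a group differed as much as groups did. Ms4a1 had 6, 2 and 1 counts in WT, 5 and 3 in p21KO, 1 and 7 in Lmo2Tg and 1 and 3 in Lmo2Tg;p21KO, and Cd22 had 3, 8 and 1, 4 and 1, 4 and 0, and 3 and 1 in the same order. All 4 groups overlapped for both genes. The 0 Pax5 counts in WT replicate 3 allow a level of up to 0.181 CPM. Summed over the 5 scarce genes, levels were 2.27, 1.40 and 0.544 CPM in WT, 1.82 and 1.46 in p21KO, 1.26 and 1.78 in Lmo2Tg and 1.07 and 1.03 in Lmo2Tg;p21KO. WT replicate 3, with the lowest sum, also had the lowest Cd74 level, at 0.544 CPM against 2.94 CPM or more in the other 8 libraries. The 6 reference B-cell genes picked above did not follow the same order, at 1.41, 1.145 and 0.968 CPM in WT, 1.23 and 1.14 in p21KO, 1.63 and 2.74 in Lmo2Tg and 1.93 and 2.29 in Lmo2Tg;p21KO.

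**Figure D4:**
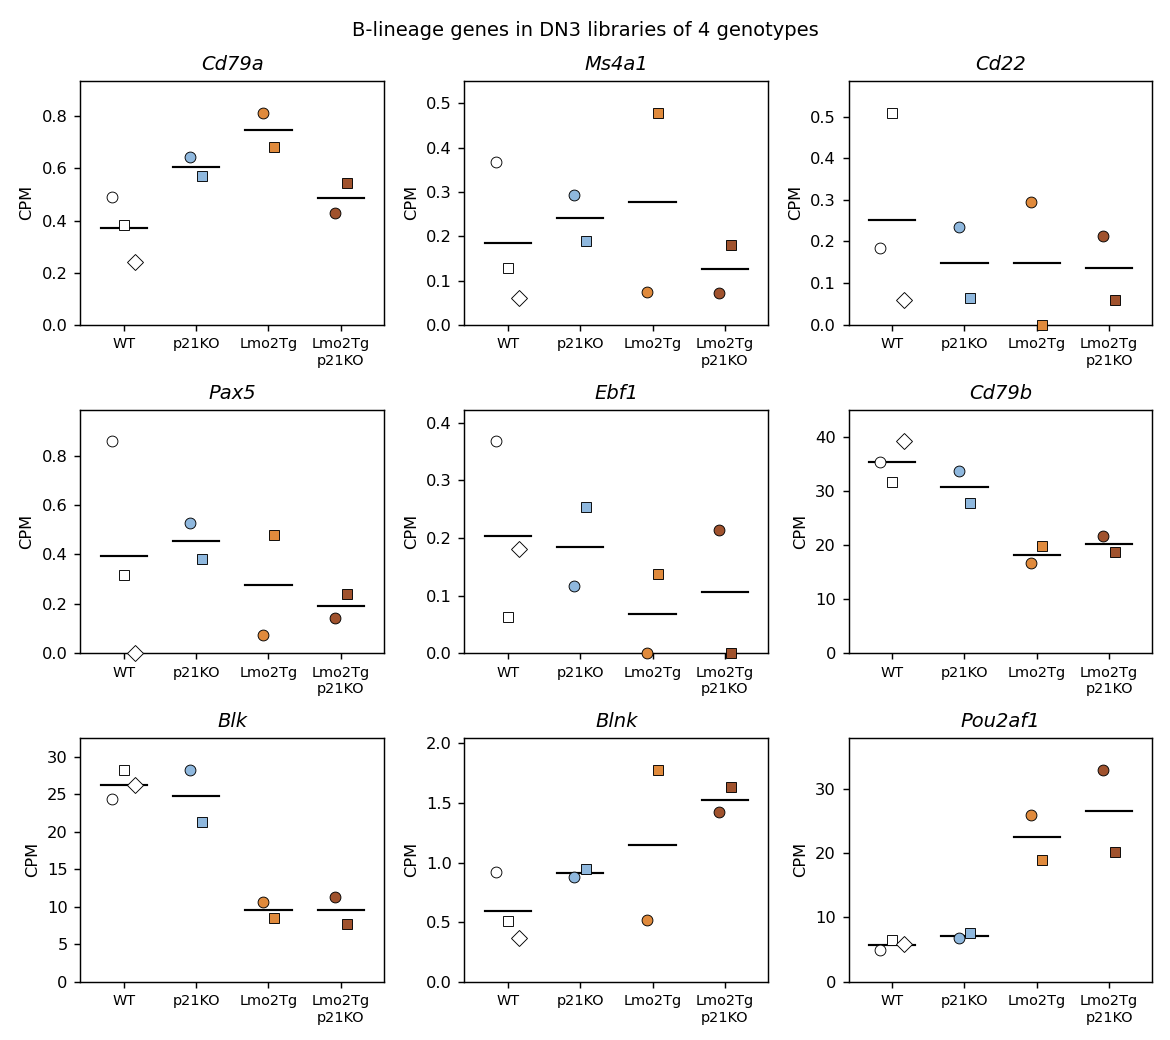
Level of each of the 9 genes in the 9 genotype libraries, in TMM-normalized CPM on linear axes from 0 (circle, square and diamond are libraries 1, 2 and 3 of a group, the line is the group mean). Cd79b and Blk are lower and Pou2af1 higher in every library with the Lmo2 transgene, while Ms4a1, Cd22, Pax5 and Ebf1 stay at 0.858 CPM or less throughout.

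Libraries with the Lmo2 transgene had lower Blk and higher Pou2af1, and the part in this of the differences in Ptcra and Cd8a given above was not tested. Blk stood at 24.4, 28.2 and 26.2 CPM in WT and at 10.7 and 8.55 CPM in Lmo2Tg, and fell by 1.45 ± 0.19 on the log2 scale (edgeR adjusted p = 2.1e-04). Pou2af1 stood at 4.96, 6.42 and 5.93 CPM in WT and at 25.9 and 19.0 CPM in Lmo2Tg, and rose by 1.96 ± 0.22 (edgeR adjusted p = 7.8e-05). Of the 5 genes tested, 1 was called higher and 1 lower at more than 2-fold and an FDR of 0.05, where 12% of 11840 genes were called, 7.29% higher and 4.7% lower. Cd79b stood at 35.4, 31.7 and 39.3 CPM in WT and at 16.6 and 19.9 CPM in Lmo2Tg, without overlap. Its log2 fold change of -0.95 ± 0.14 was under 2-fold (edgeR adjusted p = 4.5e-04), and it passed without WT replicate 2 (-1.03) or without 1 Lmo2Tg library (-1.09).

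Cd79a had 8, 6 and 4 counts in WT and 11 and 10 in Lmo2Tg (log2 fold change 1.00 ± 0.43, edgeR adjusted p = 0.090). Blnk had 15, 8 and 6 counts in WT and 7 and 26 in Lmo2Tg, which overlap, and its log2 fold change of 0.95 ± 0.53 (edgeR adjusted p = 0.18) became 1.56 (adjusted p = 0.037) or -0.20 when either Lmo2Tg library was left out. The direction of Blnk was therefore set by 1 library. The 2 genes of the CD79 pair stood on opposite sides of 0 in this comparison, although Cd79a did not pass the test.

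The same comparison on the p21KO background used other libraries, though the fit shares its estimate of spread with the first. Blk stood at 28.3 and 21.3 CPM in p21KO and at 11.3 and 7.73 CPM in Lmo2Tg;p21KO, and fell by 1.38 ± 0.20 on the log2 scale (edgeR adjusted p = 4.8e-04). Pou2af1 stood at 6.80 and 7.53 CPM in p21KO and at 33.0 and 20.1 CPM in Lmo2Tg;p21KO, and rose by 1.88 ± 0.24 (edgeR adjusted p = 2.2e-04). These were the calls among the 5 genes tested, where 10.4% of all genes were called, 6.15% higher and 4.24% lower. Cd79b stood at 33.7 and 27.8 CPM in p21KO and at 21.7 and 18.7 CPM in Lmo2Tg;p21KO, again without overlap and under 2-fold (log2 fold change -0.61 ± 0.15, edgeR adjusted p = 0.010). Blnk stood at 0.879 and 0.949 CPM against 1.43 and 1.63 CPM, without overlap, and did not pass the test (log2 fold change 0.74 ± 0.52, edgeR adjusted p = 0.30).

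**Figure D5:**
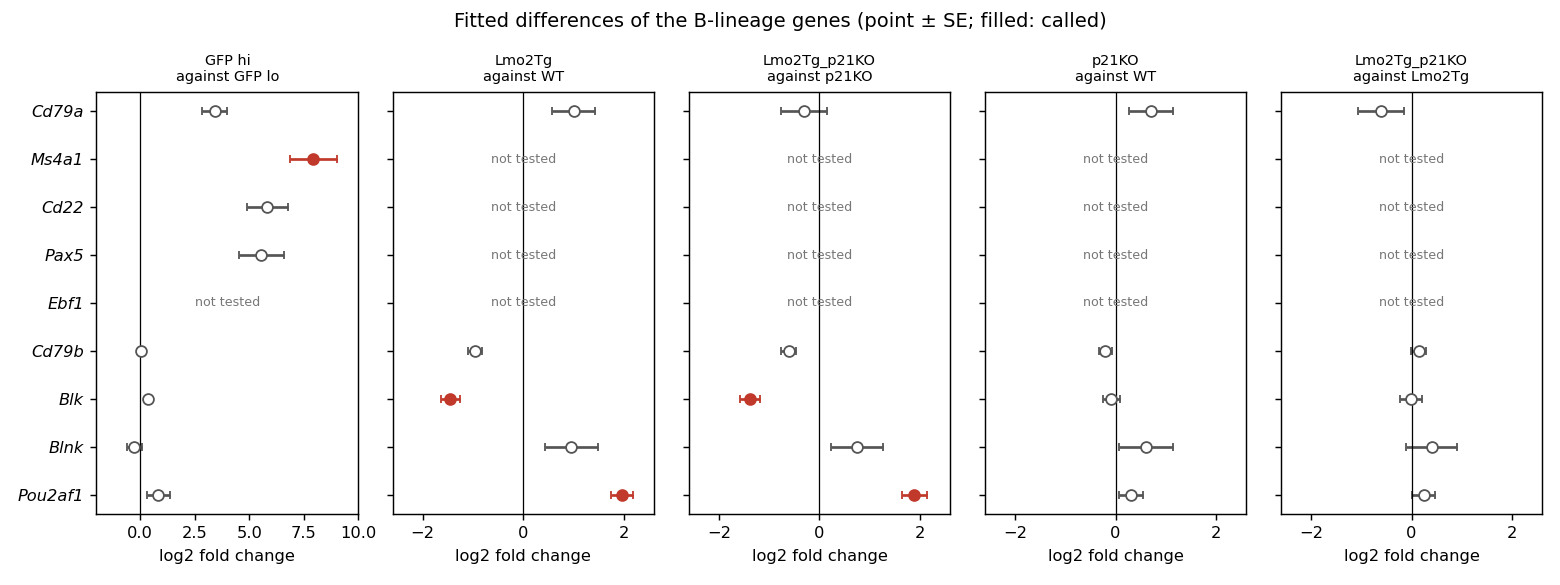
Fitted log2 fold change ± SE of each gene in 5 comparisons (filled red points were called, open points were not, genes under the filter on low counts are marked as not tested). Ms4a1 was called between GFP hi and GFP lo, and Blk and Pou2af1 were called in both comparisons of the Lmo2 transgene, with Blk at -1.45 and -1.38 and Pou2af1 at 1.96 and 1.88.

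Loss of p21 was followed by 0 calls among the 5 genes tested, with or without the transgene. Between p21KO and WT, edgeR called 0.101% of all genes, 0.0422% higher and 0.0591% lower, and had 391 at an unadjusted p under 0.05, and the log2 fold changes of Cd79b, Blk, Blnk, Pou2af1 and Cd79a lay between -0.20 and 0.70 with adjusted p = 0.98 each. For Blk the 95% interval was -0.46 to 0.29, and for Cd79b it was -0.49 to 0.09. Between Lmo2Tg;p21KO and Lmo2Tg, edgeR called 1.88% of all genes, 0.431% higher and 1.44% lower, and had 3023 at an unadjusted p under 0.05, and Pou2af1 stood at 20.1 to 33.0 CPM against 19.0 to 25.9 CPM (log2 fold change 0.24, 95% interval -0.26 to 0.74). The interaction, the difference between both effects of p21 loss, called 0.802% of all genes, 0.076% higher and 0.726% lower, and had 2148 at an unadjusted p under 0.05. It called 0 of the 5, at 0.07 for Blk (95% interval -0.54 to 0.67), -0.07 for Pou2af1 (-0.80 to 0.65) and 0.34 for Cd79b (-0.10 to 0.79).

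The receptor pathway beyond the 9 genes was followed under the Lmo2 transgene too. Of 17 other B-cell receptor signalling genes, 1 was called higher and 1 lower between Lmo2Tg and WT, and 2 higher and 0 lower between Lmo2Tg;p21KO and p21KO, with medians of 0.37 and 0.24 against -0.01 and 0.00 over all genes tested. Over all genes 7.29% were called higher and 4.7% lower in the former comparison and 6.15% and 4.24% in the latter, and these counts are too close to that background to be a result about the list. Cd81, a tetraspanin at the cell surface, rose in both comparisons (log2 fold changes 1.65 and 1.38, edgeR adjusted p = 5.3e-04 and 0.0035). Lyn, another Src-family kinase, fell by 1.04 between Lmo2Tg and WT (edgeR adjusted p = 0.0013), and Grb2, an adaptor, rose by 1.00 between Lmo2Tg;p21KO and p21KO (edgeR adjusted p = 4.5e-06). Of 6 plasma-cell genes tested, 2 were called higher in both comparisons and 0 lower. Mzb1 stood at 23.0 to 34.2 CPM in WT and 115 and 135 CPM in Lmo2Tg, and rose by 2.11 ± 0.18 (edgeR adjusted p = 1.4e-05). Prdm1, the plasma-cell repressor, rose by 1.49 ± 0.42 (edgeR adjusted p = 0.019) at a low level of 1.17 CPM in Lmo2Tg.

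Genes whose levels ran most like each of the 9 were taken by Pearson's r of log2 CPM, as a description over libraries that fall into groups. Over the 6 GFP libraries Cd74 was the closest to Ms4a1 (r = 0.998), Cd22 (r = 0.994) and Pax5 (r = 0.989). Pou2af1 ran closest to Mthfd2, an enzyme of mitochondrial folate metabolism (r = 0.998), which stood at 137.2 and 143.5 CPM in GFP hi replicates 1 and 2, 66.1 CPM in replicate 3 and 93.0 to 94.3 CPM in GFP lo. Over the 9 genotype libraries Blk ran closest to Pdk1 (r = 0.995) and Pou2af1 to Mllt6 (r = 0.994). Among the 9 genes themselves, Cd79b and Blk had r = 0.929 over the genotype libraries and 0.430 over the GFP libraries, while Blk and Cd79a had r = -0.476 and 0.970.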

How the data were processed

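Poly-A RNA-seq libraries of DN3 thymocytes were analysed from tables of raw counts that the authors deposited, one for each experiment, in whole reads per gene with an annotation limited to protein-coding genes. Per the labels' processing notes the tools were STAR 2.4.2a, featureCounts and limma on mm10 (GRCm38). The names of the tables point to counting on the reverse strand for GFP and without strand for the genotypes, which no other source used here states, so antisense genes that overlap Ms4a1, Pax5, Ebf1 and Cd22 may add to their genotype counts. Members and lists were chosen with earlier results of these data known. All 9 members are named. Of 16 labelled samples 15 have a usable column: for p21KO replicate 3 none was matched, 1 column that could not be assigned was not used, and the Lmo2Tg columns were used by group only.

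Counts were scaled by TMM and tested with edgeR 4.0.16 quasi-likelihood fits (R 4.3.3, filterByExpr with minimum count 10 and minimum total 15) over all genes with Benjamini-Hochberg adjustment, the 6 GFP libraries in one fit and the 9 genotype libraries in another. Calls needed more than 2-fold and FDR 0.01 (GFP, as in the study) or 0.05 (genotypes). SE is the log2 fold change over the root of the F statistic. Its 95% interval uses the t quantile at the degrees of freedom of the fit, and ratios of libraries have exact 95% binomial intervals. Exon lengths and positions came from GENCODE M21, which matched 98.2% of identifiers. On simulated counts with 200 genes changed by 2 on the log2 scale, the GFP fit recovered 163 and called 1 other. Alternatives were RLE factors, no filter, a filter at 1 CPM, DESeq2 1.42.0, limma-voom (limma 3.58.1), another FDR, only the groups compared, a replicate block and each library left out. Libraries are pools, and p-values measure the spread between them. Total counts are given with the first results. Python 3.11.15, scipy 1.17.1 and matplotlib 3.10.9 were used for intervals and figures.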

Additional observations from a re-analysis of the deposited data

Results flagged for a closer look

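Cd79a was the 1 gene of the 9 for which every library moved one way with p21 loss in the absence of the Lmo2 transgene and the other way in its presence. It had 8, 6 and 4 counts in WT and 11 and 9 in p21KO, but 11 and 10 in Lmo2Tg and 6 and 9 in Lmo2Tg;p21KO. The interaction was -1.30 ± 0.62 on the log2 scale (95% interval -2.68 to 0.07) and did not pass the test (edgeR adjusted p = 0.30). Cd79a had at most 11 counts in any of these libraries. How many of all genes crossed in this way was not counted, so the crossing is not a result about Cd79a.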

How the results depend on the processing

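Over 399 values of single genes under the alternatives, 364 kept direction and call, 13 gained a call, 6 lost it and 16 changed direction, and all 16 had left out 1 library. The 261 genes called between GFP hi and GFP lo became 741 with DESeq2, 731 at FDR 0.05 and 0 with the replicate block (3216 at an unadjusted p under 0.05), and ranged from 0 to 1035 when 1 library was left out. Leaving out GFP hi replicate 1 gave 59, replicate 2 gave 100 and replicate 3 gave 1035, while in GFP lo replicate 1 gave 12 and replicates 2 and 3 gave 0 each (2428 and 2869 at an unadjusted p under 0.05). The replicate block also ended the call of Ms4a1 (7.84, adjusted p = 0.039) and left 12 calls between p21KO and WT, but same-numbered libraries did not deviate together (r = 0.116, -0.102 and 0.0731 for GFP), and no source used here ties a number to 1 of the 3 cohorts, so the numbers were not taken as pairs. Calls between Lmo2Tg;p21KO and Lmo2Tg fell from 222 to 97 at FDR 0.01 and ranged from 48, without Lmo2Tg;p21KO replicate 1, to 218 with 1 library left out. The interaction went from 95 calls to 224 without a filter, 161 with DESeq2, 0 at FDR 0.01 and 0 to 259 with 1 library left out, with 0 without WT replicate 1 or 3 or Lmo2Tg;p21KO replicate 1 and 259 without p21KO replicate 1. With 1 library left out, log2 fold changes that changed sign were those of Cd79b between GFP hi and GFP lo (-0.11 to 0.15), Blnk between Lmo2Tg and WT (-0.20 to 1.56), Blk between p21KO and WT (-0.31 to 0.10), Blk (-0.32 to 0.23), Blnk (-0.22 to 1.55) and Pou2af1 (-0.17 to 0.55) between Lmo2Tg;p21KO and Lmo2Tg, and Blk (-0.24 to 0.32), Blnk (-0.82 to 0.95) and Pou2af1 (-0.48 to 0.23) in the interaction. The cause of these changes was not tested. Blk and Pou2af1 kept their calls in both comparisons of the transgene under every alternative run. Where a group was left with 1 library, that library was assumed to vary like the rest. Depth limits Ms4a1, Pax5, Ebf1 and Cd22 in the genotype libraries, where they had 14 counts or fewer.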

Other observations

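Among genes known from B cells but outside the 9, several regulators moved with the Lmo2 transgene. Spib, an Ets-family factor of B cells and plasmacytoid cells, stood at 41.5 to 48.5 CPM in WT and 13.5 to 14.6 CPM in Lmo2Tg, and fell by 1.71 ± 0.12 on the log2 scale (edgeR adjusted p = 3.4e-06). Bach2, a repressor that delays plasma-cell differentiation, stood at 25.8 to 31.8 CPM in WT and 61.1 to 69.1 CPM in Lmo2Tg, and rose by 1.21 ± 0.13 (edgeR adjusted p = 4.3e-05). Pou2f2, an octamer-binding factor that pairs with the product of Pou2af1, rose by 1.14 ± 0.24 from 1.69 ± 0.35 CPM in WT (SD, n = 3, edgeR adjusted p = 0.0041). Of 14 reference B-cell genes tested, 5 were called higher and 1 lower between Lmo2Tg and WT, where 7.29% of all genes were called higher and 4.7% lower. Their median log2 fold change was 0.81, against -0.01 over all genes tested.

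Members of the MHC class II list differed in how they ran. H2-Ab1 stood at 6.40 to 9.69 CPM in GFP lo, where Cd74 was at 0.296 to 0.419 CPM, and it ranged from 4.36 to 18.2 CPM in GFP hi, highest in replicate 2. Between Lmo2Tg and WT, 4 of 10 were called lower and 0 higher, where 4.7% of all genes were called lower and 7.29% higher. The 4 were H2-Ab1, H2-DMa, H2-DMb1 and H2-DMb2. H2-Ab1 stood at 7.48 to 9.25 CPM in WT and 2.88 and 3.01 CPM in Lmo2Tg (log2 fold change -1.47 ± 0.20, edgeR adjusted p = 2.9e-04). Cd74 was not called there, at 0.544 to 3.56 CPM in WT and 3.18 and 3.35 CPM in Lmo2Tg (log2 fold change 0.48 ± 0.51, edgeR adjusted p = 0.49). Between Lmo2Tg;p21KO and p21KO, 4 of the 10 were called lower and 2 higher, where 4.24% of all genes were called lower and 6.15% higher.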
